A study of Mus musculus with 4 samples.

Results

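The 7 genes described here encode the gelatinase MMP-9, the inhibitors TIMP-1 and TIMP-2, and the membrane proteases ADAM8, ADAM10, ADAM17 and ADAM19, and they were taken by name from the 25724 gene columns of 1 table of counts. They were read in the 1050 of 1985 barcodes that held at least 500 counts, at least 200 detected genes and under 20% mitochondrial counts. The genes were picked from earlier results of the same table, so their counts in all these barcodes, the gates on Foxp3, Gata3, Ikzf2 and Gzmb included, are taken as used in the choice and every value below is a description. The study profiled CD4 T cells taken from lamina propria of the mouse colon, the tissue layer under the gut lining, by inDrops, which captures single cells in droplets with barcoded primers. The labels name 1 group, Btheta_colon, of 4 samples from B6 mice, males of 6 weeks, and give no allele. The tissue was digested with collagenase and dispase, and CD45+ TCRb+ CD4+ cells were sorted. The 4 samples share 1 library name and 1 table whose barcodes carry no sample, so the table counts as 1 sample. No test between samples was possible and no p-value is given, and all intervals are exact 95% intervals that cover counting error only.

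Matrix metalloproteinases and ADAM proteases are zinc enzymes that cut proteins outside the cell. MMP-9 is secreted and cuts denatured and basement membrane collagens, and TIMPs bind metalloproteinases at the active site and block them. ADAM proteases sit in the membrane and release the outer parts of neighbouring surface proteins, a process called shedding, by which T cells lose L-selectin and release TNF.

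The catalytic sites of the 4 ADAM genes are shown because this stretch is what makes them zinc proteases. Each line gives 33 coding bases from the GENCODE vM21 annotation of GRCm38 (mm10), 5′ to 3′ on the coding strand, with the codons of the 3 zinc-binding histidines in capitals.
Adam8: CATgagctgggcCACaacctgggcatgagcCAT
Adam10: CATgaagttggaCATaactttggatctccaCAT
Adam17: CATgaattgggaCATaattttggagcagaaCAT
Adam19: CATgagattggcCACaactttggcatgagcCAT
The Adam8 site lies in exon 11 at chr7:139987893-139987925 (minus strand), the Adam17 site in exon 11 at chr12:21336732-21336764 (minus strand) and the Adam19 site in exon 11 at chr11:46125050-46125082 (plus strand). The Adam10 site is joined from exons 9 and 10, from chr9:70754296 to chr9:70761585 (plus strand). Adam8 and Adam19 shared 29 of the 33 bases, and Adam10 and Adam17, the principal sheddases, shared 26. The other 4 pairs shared 19 to 22 bases.

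All 7 genes are protein coding. In GRCm38 Mmp9 lies on chromosome 2 from 164940780 to 164955850 and Timp2 on chromosome 11 from 118301069 to 118355740. Adam8 lies on chromosome 7 from 139978932 to 139992562, and Adam17 on chromosome 12 from 21323509 to 21373632. The end of Adam17 overlaps Iah1 on the opposite strand, which held 38 counts, and Adam8 overlaps Gm16201, which held 3. Whether the counting used strand is not given in the sources used here, so reads in these overlaps could not be assigned with certainty.

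The barcodes were T cells by their transcripts: 11 of 11 T cell markers were detected, and 1031 barcodes (98.2%) held at least 1 of them. Depth ran from 501 to 13023 counts per barcode with a median of 1235.5, so that 1 count in the median barcode equals 809 CPM (counts per 1000000 counts). For a gene with 0 counts over all kept barcodes, the exact interval reaches up to 2.38 CPM, and 3 counts would give 1.94 CPM. Other cell types left marker transcripts too, at summed levels of 1755 CPM for epithelial, 485 CPM for stromal or endothelial and 402 CPM for B or plasma cell markers. Of the 10 stromal or endothelial markers 10 were detected, in 127 barcodes, and of 12 myeloid markers 10, in 39 barcodes. All 10 epithelial markers with a column were detected, in 47 barcodes, as were 6 of 7 markers of CD8, gamma delta, innate lymphoid or NK cells in 50. All 7 B or plasma cell markers were detected, in 324 barcodes, of which 312 held Ighm.

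Timp1, an inhibitor that binds the MMP-9 proenzyme, had 0 counts in the kept barcodes and 0 in the 935 left out. It lies inside Syn1, a gene on the opposite strand of chromosome X, which also had 0 counts. The 6 other genes were each seen in a minority of barcodes. Mmp9 had 147 counts in 95 barcodes (9.05%, 7.38 to 10.9), or 94.9 CPM, with at most 5 counts in 1 barcode. Timp2, an inhibitor that also helps to activate the MMP-2 proenzyme, had 238 counts in 134 barcodes (12.8%, 10.8 to 14.9), with at most 11 in 1 barcode. Among the sheddases, Adam10 had 143 counts in 99 barcodes (9.43%, 7.73 to 11.4) and Adam17 had 76 counts in 45 (4.29%, 3.14 to 5.69). Adam8, a leukocyte protease, had 50 counts in 39 barcodes (3.71%, 2.65 to 5.04), and Adam19, also called meltrin beta, had 159 counts in 119 (11.3%, 9.48 to 13.4). The largest share of a gene's counts in 1 barcode was 6.58%, for Adam17.

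These transcripts were scattered over different barcodes. None of the 7 was seen in 629 barcodes (59.9%), 1 in 324, 2 in 84 and 3 in 13, and the median depth of these classes was 1170, 1354, 1461 and 1420 counts. Mmp9 and its inhibitor Timp2 were seen together in 15 barcodes. Timp2 was detected in 15.8% of barcodes with Mmp9 (9.12 to 24.7) and in 12.5% of those without (10.4 to 14.7), and the intervals overlap. The sheddases Adam10 and Adam17 were seen together in 8 barcodes, with Adam17 in 8.08% of barcodes with Adam10 (3.55 to 15.3) and 3.89% of those without (2.75 to 5.32).

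The barcodes were then gated, a barcode being positive where it held at least 1 count of the gate gene. Foxp3, which sets the fate of regulatory T cells, was present in 332 barcodes (31.6%), and Gata3, a factor of Th2 cells and of tissue regulatory T cells, in 572 (54.5%). Ikzf2, which encodes Helios, was present in 358 (34.1%), and Gzmb, the gene of granzyme B, a protease of killer lymphocytes, in 185 (17.6%). A negative barcode may still express the gate gene below this depth. The gates overlap, and 57.3% of Gzmb-positive but 26.1% of Gzmb-negative barcodes held Foxp3. The positive sides were somewhat deeper, with median counts from 1304.5 to 1373 against 1161 to 1216 on the negative sides. Counts were summed on each side of a gate, and a gene with at least 50 counts was called higher or lower where its levels on the sides differed by at least 1.5-fold. This call takes no account of error, and 6 of the 7 genes had the counts to enter it.

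On the Foxp3 side 3 of the 6 measured genes were called higher, Adam17, Mmp9 and Adam8, and 0 lower. Of all 4789 genes with at least 50 counts, 10.3% were called higher and 11.0% lower in this gate, 21.3% in either direction. The median log2 ratio of the 6 was 0.51, beside 0.0070 over all genes tested. Earlier results of this gate were known when the genes were picked, so this count supports nothing.

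**Figure D1:**
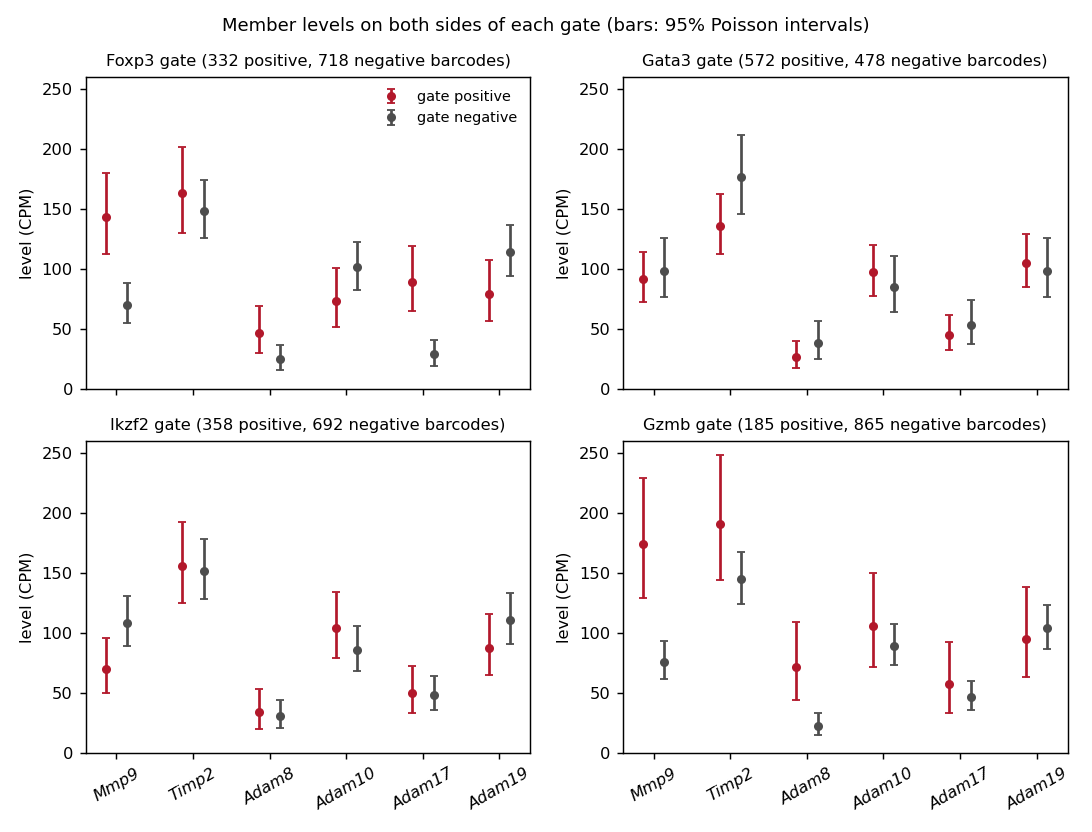
Level in CPM (y axis) of the 6 detected genes on the positive (red) and negative (grey) side of the gates on Foxp3, Gata3, Ikzf2 and Gzmb; points are summed counts and bars exact 95% Poisson intervals. Mmp9 stood at 144 against 70.6 CPM in the Foxp3 gate and at 174 against 76.4 CPM in the Gzmb gate, and Adam17 stood at 89.4 against 29.0 CPM in the Foxp3 gate.

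Mmp9 was higher in barcodes with Foxp3 and in barcodes with Gzmb. It stood at 144 CPM (113 to 180.5) in Foxp3-positive and 70.6 CPM (55.3 to 88.7) in Foxp3-negative barcodes, a log2 ratio of 1.03 (0.54 to 1.51). It was detected in 13.3% and 7.10% of them, and in 6.68% and 3.76% when every barcode is thinned to 500 counts. In the Gzmb gate it stood at 174 CPM (129.6 to 229) against 76.4 CPM (61.9 to 93.3), a log2 ratio of 1.19 (0.67 to 1.69). It was detected in 19.5% of Gzmb-positive barcodes (14 to 25.9) and 6.82% of Gzmb-negative ones (5.23 to 8.71), and in 9.08% and 3.74% after thinning. Intervals of the sides did not overlap in either gate. For comparison, Mmp9 was detected in 3.98% (1.93 to 7.20) of the 251 barcodes with a transcript of naive T cells (Ccr7, Lef1, Tcf7, Satb1 or Igfbp4). Their median depth was 1396 counts. This share was below both gate-negative sides, but its interval overlaps those of Foxp3-negative (5.33 to 9.23) and Gzmb-negative barcodes (5.23 to 8.71).

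The summed level of Mmp9 was lower in barcodes with Ikzf2, though the share of barcodes that held it was alike. Within Foxp3-positive barcodes the gap was wider. It stood at 70.1 CPM (49.8 to 95.8) in Ikzf2-positive and 109 CPM (89.3 to 131) in Ikzf2-negative barcodes, a log2 ratio of -0.63 (-1.20 to -0.09). Mmp9 was detected in 8.38% (5.73 to 11.7) and 9.39% (7.32 to 11.8) of them, or 3.91% and 5.08% after thinning. With counts capped at 1 per barcode the ratio no longer passed 1.5-fold. Among the 166 barcodes with both Foxp3 and Ikzf2 the level was 64.3 CPM (37.4 to 103), and among the 166 with Foxp3 alone of this pair it was 228 CPM (173 to 295). The log2 ratio between them was -1.83 (-2.70 to -1.02), and Mmp9 was detected in 8.43% (4.69 to 13.7) and 18.1% (12.5 to 24.8) of them. Among Foxp3-negative barcodes the level was 75.4 CPM (47.2 to 114) with Ikzf2 and 68.7 CPM (51.1 to 90.3) without, a log2 ratio of 0.13 (-0.66 to 0.88). Read the other way, the Foxp3 gate gave a log2 ratio of 1.73 (1.16 to 2.30) within Ikzf2-negative and -0.23 (-1.23 to 0.75) within Ikzf2-positive barcodes. With the gate genes themselves read from barcodes thinned to 500 counts, the Ikzf2 ratio within Foxp3-positive barcodes had a median of -0.93 over 20 random draws (-2.47 to 0.79), negative in 18 of them. The Ikzf2 ratio over all barcodes had a median of -0.29 over the same draws and was negative in 13 of 20.

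The 2 gates in which Mmp9 was higher overlapped, and it was therefore also read inside each. In Foxp3-negative barcodes Mmp9 stood at 149.9 CPM (88.8 to 237) with Gzmb, from 18 counts in 79 barcodes, and at 60.2 CPM (45.3 to 78.3) without, a log2 ratio of 1.32 (0.46 to 2.11). In Foxp3-positive barcodes it stood at 191 CPM (131 to 268) with Gzmb and 119.9 CPM (86.1 to 163) without, where the interval of the ratio included 0 (0.67, -0.04 to 1.37). The Foxp3 ratio was 1.0 (0.38 to 1.61) in Gzmb-negative and 0.35 (-0.52 to 1.26) in Gzmb-positive barcodes. Whether these ratios differ from each other was not tested.

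**Figure D2:**
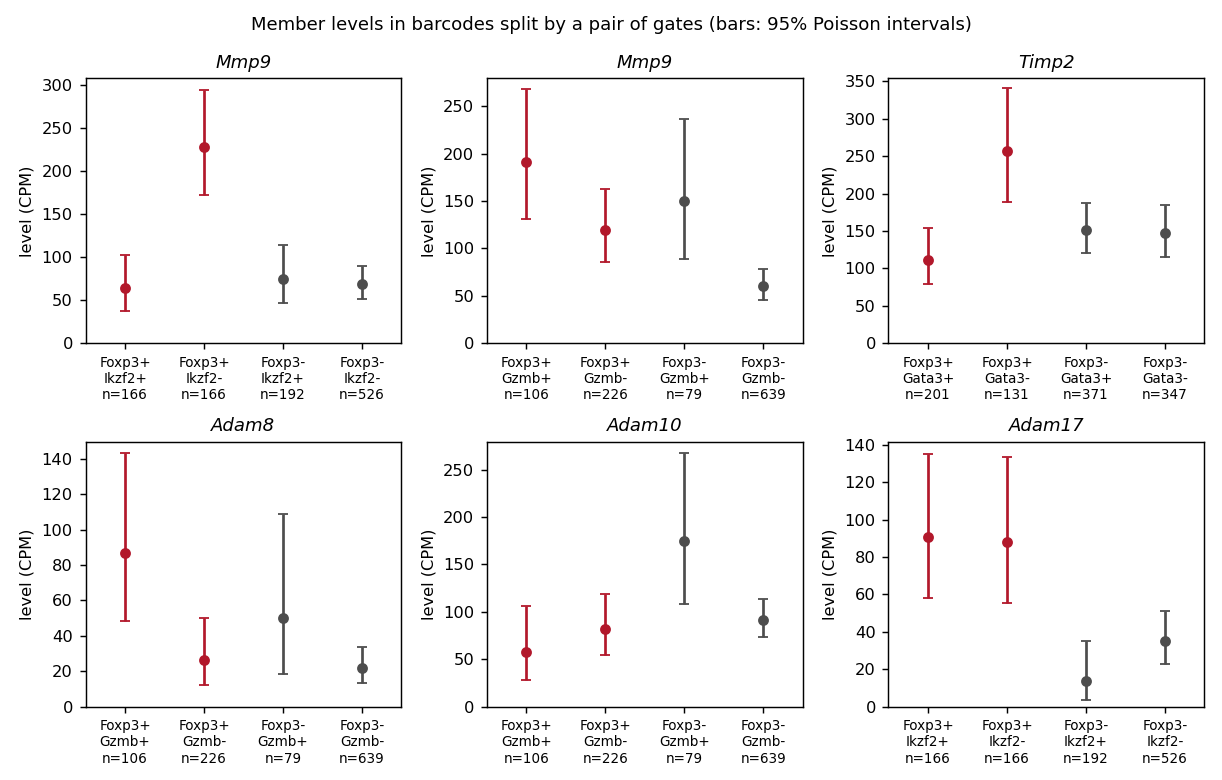
Level in CPM (y axis) in barcodes split by a pair of gates, with the number of barcodes under each point; red points are Foxp3-positive and grey points Foxp3-negative, and bars are exact 95% Poisson intervals. Mmp9 was at 228 CPM in barcodes with Foxp3 and without Ikzf2 and at 64.3 CPM with both; Timp2 was at 256 CPM with Foxp3 and without Gata3, and Adam10 at 175 CPM with Gzmb and without Foxp3.

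Split by all 4 gate genes, 14 disjoint groups held at least 20 barcodes, 1021 in all, and Mmp9 ran from 14.7 to 449 CPM over them. The lowest level was in the 83 barcodes with Foxp3, Gata3 and Ikzf2 but not Gzmb (14.7 CPM, 1.79 to 53.3), from 2 counts in 1 barcode. The highest was in the 21 barcodes with Foxp3, Gata3 and Gzmb but not Ikzf2 (449 CPM, 256 to 729), from 16 counts in 7 barcodes. Next came barcodes with Gzmb alone (264 CPM, 121 to 502) and with Foxp3 alone (237 CPM, 145 to 366), and the 263 barcodes with none of the 4 stood at 51.9 CPM (31.2 to 81.0). Each group's interval overlapped that of its neighbour in this order, while the intervals of the lowest and the highest group did not overlap.

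Of the inhibitors, Timp2 was detected in more barcodes with Foxp3 but at a like summed level, and it was lower with Gata3 among Foxp3-positive barcodes. It stood at 163 against 149 CPM in the Foxp3 gate (log2 ratio 0.13, -0.27 to 0.53), at 156 against 152 CPM in the Ikzf2 gate (0.04, -0.36 to 0.43) and at 191 against 145 CPM in the Gzmb gate (0.40, -0.06 to 0.84). In the Gata3 gate it stood at 136 against 177 CPM (-0.38, -0.76 to 0.0012). None of these 4 intervals left out 0. It was detected in 17.8% of Foxp3-positive barcodes (13.8 to 22.3) and 10.4% of Foxp3-negative ones (8.31 to 12.9), or 7.5% and 5.69% after thinning. The unthinned intervals did not overlap, and with counts capped at 1 per barcode the Foxp3 ratio was 0.64 (0.13 to 1.16), past 1.5-fold. Among Foxp3-positive barcodes Timp2 stood at 112 CPM (78.7 to 154) with Gata3 and 256 CPM (188 to 341) without, a log2 ratio of -1.20 (-1.86 to -0.54). Among Foxp3-negative barcodes it stood at 151 and 147 CPM (0.04, -0.44 to 0.52). Among Gzmb-positive barcodes it stood at 109 CPM (65.4 to 169.7) with Gata3 and 313 CPM (221 to 432) without, a log2 ratio of -1.53 (-2.41 to -0.69). Over the 14 groups Timp2 was highest in the 30 barcodes with Foxp3 and Gzmb only (366 CPM, 205 to 604).

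Part of the Timp2 signal lay in barcodes without transcripts of the T cell receptor complex or Cd4. The 33 barcodes with none of Cd3d, Cd3e, Cd3g, Trac, Trbc1, Trbc2 and Cd4 held 21 of its 238 counts (8.82%), in 4 barcodes, at 480.4 CPM (297 to 734) against 144 CPM (126 to 165) in the others. The same 33 held 589 counts of the stromal markers, 78.3% of them all. Summed stromal markers stood at 124 CPM in Gata3-positive and 964 CPM in Gata3-negative barcodes, with Cdh5 alone of 10 at 0 on the positive side. Without these 33 barcodes the Timp2 ratio of the Gata3 gate within Foxp3-positive barcodes was -1.16. That ratio is a weak check, because stromal markers were low there, at 68.0 CPM against 693 CPM in Foxp3-negative barcodes. Over all barcodes the Timp2 ratio of the Gata3 gate ran from -0.49 to -0.10 over 13 alternatives, which include leaving out these 33. Other genes had 1 to 4 counts in the 33 barcodes.

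Of the sheddases, Adam17, which releases TNF and L-selectin, was higher with Foxp3, also on either side of the Gata3, Ikzf2 and Gzmb gates. It stood at 89.4 CPM (65.4 to 119) in Foxp3-positive and 29.0 CPM (19.6 to 41.4) in Foxp3-negative barcodes, a log2 ratio of 1.62 (0.93 to 2.34) from 46 counts in 24 barcodes and 30 counts in 21. It was detected in 7.23% and 2.92% of barcodes, or 3.87% and 1.23% after thinning. The Foxp3 ratio was 1.96 (0.93 to 3.07) with Gata3 and 1.40 (0.37 to 2.43) without it. Within Ikzf2-positive barcodes Adam17 stood at 90.7 CPM with Foxp3 and 13.7 CPM without (2.73, 1.19 to 4.71), the latter from 4 counts, and within Ikzf2-negative barcodes at 88.0 and 35.0 CPM (1.33, 0.44 to 2.20). Within Gzmb-negative barcodes the ratio was 1.37 (0.58 to 2.16). All 17 counts of Adam17 in Gzmb-positive barcodes fell in 7 barcodes with Foxp3, and the 79 without Foxp3 held 0. With that side set to 3 counts the level was 3.94-fold higher with Foxp3, and the exact interval starts at 2.87-fold. With the gate also read from thinned barcodes, the Foxp3 ratio had a median of 1.31 over 20 draws (0.16 to 2.45), and the ratio within Ikzf2-positive barcodes was positive in 16 of 20. In the other 3 single gates the intervals of Adam17 included 0, with ratios from -0.25 to 0.31. Over the 14 groups the level with Foxp3 was uneven. It was highest with Foxp3 and Gzmb only (220 CPM, 100 to 417), from 9 counts in 3 barcodes. Barcodes with Foxp3 alone stood at 35.5 CPM (7.33 to 104), from 3 counts. Those with none of the 4 gate genes stood at 40.9 CPM (22.9 to 67.5). The 38 with all 4 held 1 count. Within Gzmb-positive barcodes Adam17 stood at 17.2 CPM with Gata3, from 3 counts in 2 barcodes, and 119 CPM without, from 14 counts in 5. The log2 ratio was -2.79 (-5.23 to -0.95), and it was not read from thinned gates.

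Adam10, which cuts Notch receptors among other proteins, did not share that pattern of levels. It stood at 73.8 CPM (52.2 to 101) in Foxp3-positive and 102 CPM (83.0 to 123) in Foxp3-negative barcodes, and the interval of the ratio included 0 (-0.46, -1.03 to 0.09). With Gata3 present it stood at 60.4 CPM (36.9 to 93.3) with Foxp3 and 119.9 CPM (92.7 to 153) without, a log2 ratio of -0.99 (-1.79 to -0.25). Among Gzmb-positive barcodes it stood at 57.9 CPM (27.7 to 106) with Foxp3, from 10 counts, and 175 CPM (108 to 267) without, from 21 counts (-1.60, -2.85 to -0.45). Without Gata3 the Foxp3 ratio was 0.28 (-0.61 to 1.12). Read from thinned gates, the ratio with Gata3 present was negative in 17 of 20 draws (median -1.43), while the ratio among Gzmb-positive barcodes had a median of -0.31 over 20 draws (-2.50 to 1.18) and was negative in 13 of them. Across the 14 groups the levels of Adam10 and Adam17, as log2(CPM + 20), had a Pearson correlation of -0.48, which rests on few counts per group and on groups drawn from the same table.

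**Figure D3:**
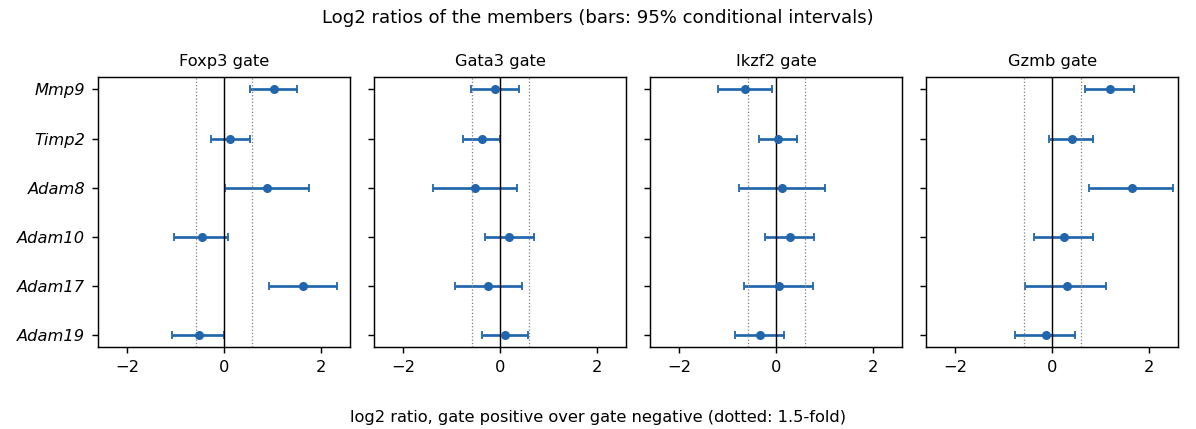
Log2 ratio of the level on the positive over the negative side (x axis) for the 6 detected genes in the 4 gates; bars are exact conditional 95% intervals and dotted lines mark 1.5-fold. In the Foxp3 gate the intervals of Mmp9, Adam8 and Adam17 lie above 0, in the Gata3 gate all 6 include 0, in the Ikzf2 gate Mmp9 lies below 0, and in the Gzmb gate Mmp9 and Adam8 lie above 0.

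Adam8 was higher in barcodes with Gzmb. It stood at 71.7 CPM (44.4 to 109.6) in Gzmb-positive barcodes, from 21 counts in 15 barcodes, and at 23.1 CPM (15.5 to 33.2) in Gzmb-negative ones, from 29 counts in 24, a log2 ratio of 1.63 (0.75 to 2.49). It was detected in 8.11% and 2.77% of barcodes, or 3.42% and 1.11% after thinning. Within Foxp3-positive barcodes it stood at 86.8 CPM with Gzmb and 26.3 CPM without (1.72, 0.43 to 3.09), and the interval within Foxp3-negative barcodes included 0 (1.19, -0.41 to 2.56). With thinned gates the ratio within Foxp3-positive barcodes ran from 0.29 to 3.83 over 20 draws. The Foxp3 gate itself gave 46.6 against 25.1 CPM (0.89, 0.03 to 1.75), and this ratio was positive in 14 of 20 draws with thinned gates (median 0.56). Within Foxp3-positive barcodes Adam8 stood at 24.2 CPM with Gata3, from 8 counts, and 87.2 CPM without, from 16 (-1.85, -3.28 to -0.54), but with thinned gates this ratio was negative in 13 of 20 draws (median -0.34). With 50 counts in all, Adam8 was at the minimum set for a gene to be measured.

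The intervals of the Adam19 ratios included 0 in all 4 single gates, in the Foxp3 gate by a narrow margin. Its levels were 79.7 against 114 CPM in the Foxp3 gate (-0.52, -1.07 to 0.0057), 105 against 98.9 CPM in the Gata3 gate (0.09, -0.38 to 0.57), 88.0 against 111 CPM in the Ikzf2 gate (-0.33, -0.85 to 0.17) and 95.6 against 104 CPM in the Gzmb gate (-0.13, -0.77 to 0.47). In the Foxp3 gate the interval lay below 0 with barcodes of at least 1000 counts (-0.77, -1.39 to -0.19), with the gate at 2 counts (-0.93, -1.76 to -0.19) and under 10% mitochondrial counts (-0.57, -1.12 to -0.05). The Gzmb gate gave ratios of opposite sign by Gata3. With Gata3, Adam19 stood at 45.8 CPM with Gzmb, from 8 counts, and 120.2 CPM without (-1.39, -2.65 to -0.35). Without Gata3 it stood at 169 CPM with Gzmb and 83.8 CPM without (1.02, 0.18 to 1.80).

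The counts per gate were fewer elsewhere. In the Gata3 gate 0 of the 6 genes passed 1.5-fold, where 10.1% of all genes were called higher and 8.23% lower, 18.3% in either direction. In the Ikzf2 gate 1 of 6, Mmp9, was called lower, and 0 higher, where 9.71% of all genes were called lower and 10% higher, 19.8% in either direction. That call of Mmp9 was lost with counts capped at 1 per barcode, with means of scaled barcodes and without the barcode that held most Mmp9. In the Gzmb gate 2 of 6, Adam8 and Mmp9, were called higher and 0 lower, where 11.7% of all genes were called higher and 14.8% lower, 26.5% in either direction. The medians of the 6 log2 ratios were -0.18, 0.05 and 0.35 in these 3 gates, beside 0.033, 0.011 and 0.0092 over all genes tested.

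Markers of other cell types also moved with the gates. In Foxp3-positive against Foxp3-negative barcodes the summed stromal markers stood at 68.0 against 693 CPM, the epithelial markers at 56.3 against 2601 CPM and the myeloid markers at 48.6 against 149 CPM. Col1a1, Lum, Cdh5, Krt20, Car1, Guca2a and Itgax were at 0 on the positive side, and S100a8 and S100a9 on the negative side. Cd68 and Fcgr1 were at 0 in all kept barcodes. In the Gzmb gate the same lists stood at 81.9 against 579.6, 20.5 against 2160 and 27.3 against 136 CPM, and 5 of 10 stromal, 3 of 10 epithelial and 5 of 12 myeloid markers were detected on the positive side, with S100a8 and S100a9 at 0. In the Ikzf2 gate they stood at 95.2 against 704, 746 against 2321 and 117 against 115 CPM. There Col1a2, Cdh5, Klk1, S100a9 and Itgax were at 0 on the positive side, and Adgre1 and S100a8 on the negative side. In the Gata3 gate the epithelial markers stood at 20.4 against 4048 CPM and the myeloid markers at 83.9 against 157 CPM. There Krt20, Klk1 and S100a9 were at 0 on the positive side, and Adgre1 and S100a8 on the negative side. Markers of CD8, gamma delta, innate lymphoid or NK cells stood at 69.9 against 39.6 CPM in the Foxp3 gate, 64.7 against 41.3 CPM in the Ikzf2 gate and 20.5 against 56.5 CPM in the Gzmb gate. B or plasma cell markers stood at 507 against 350 CPM in the Foxp3 gate, with Cd79a, Ms4a1, Jchain and Pax5 at 0 on the positive side. In the Ikzf2 gate, where Mmp9 was lower, they stood at 553 against 317 CPM and were detected in 41.3% against 25.4% of barcodes, and their part in that result was not tested. Without the 57 barcodes that held at least 2 counts of such markers (Ighm left aside), the Foxp3 ratios were 0.93 for Mmp9, 1.56 for Adam17 and 0.85 for Adam8. The Gzmb ratios were 1.22 for Mmp9 and 1.56 for Adam8, and the Ikzf2 ratio of Mmp9 was -0.60.

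In further gates Mmp9, Timp2 and Adam8 were each higher in barcodes with Il10, a cytokine gene that dampens inflammation. The same held for barcodes with Ccr2, a chemokine receptor gene. Mmp9 stood at 186 CPM in the 266 barcodes with Il10 and 62.9 CPM in the rest (1.56, 1.08 to 2.05), and at 154 against 53.8 CPM in the Ccr2 gate of 399 barcodes (1.52, 1.01 to 2.04). Timp2 stood at 253 against 119 CPM (1.09, 0.70 to 1.47) and at 210.2 against 114 CPM (0.88, 0.50 to 1.27). Adam8 stood at 59.4 against 22.7 CPM (1.39, 0.53 to 2.25) and at 50.2 against 19.7 CPM (1.35, 0.47 to 2.27). For Adam10, Adam17 and Adam19 the intervals of both gates included 0. The positive sides had median depths of 1314 and 1354 counts against 1212 and 1170. In the 100 barcodes with Itgae, which encodes the integrin CD103, Adam8 stood at 101 against 25.0 CPM (2.01, 1.04 to 2.92) and Timp2 at 276 against 141 CPM (0.97, 0.45 to 1.46), and Mmp9 did not differ beyond its interval (0.20, -0.65 to 0.96).

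**Figure D4:**
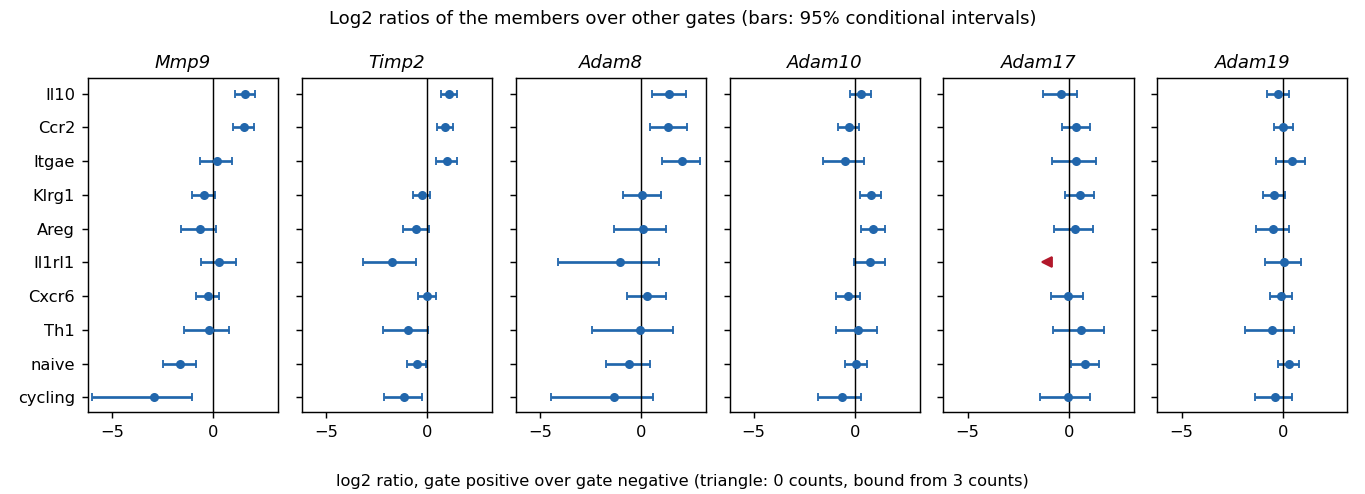
Log2 ratio of the level in gate-positive over gate-negative barcodes (x axis) for 6 genes (panels) over 10 further gates (y axis); points carry exact conditional 95% intervals, and the triangle marks Adam17 in the Il1rl1 gate, where 0 counts give only a bound. Mmp9, Timp2 and Adam8 lie above 0 in the Il10 and Ccr2 gates, Adam10 in the Klrg1 and Areg gates, and Mmp9 lies below 0 in the naive and cycling gates.

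Adam10 was instead higher in barcodes with Klrg1, a receptor of differentiated T cells, and with Areg, the gene of the repair factor amphiregulin. It stood at 129.6 against 75.7 CPM in the Klrg1 gate (0.78, 0.27 to 1.27) and at 155 against 82.7 CPM in the Areg gate (0.91, 0.29 to 1.49). Mmp9 in these gates gave -0.46 (-1.05 to 0.09) and -0.66 (-1.61 to 0.16). In the 76 barcodes with Il1rl1, which encodes the IL-33 receptor, Adam17 had 0 counts against 53.2 CPM in the rest. With that side set to 3 counts the log2 ratio was -1.10, and the exact interval reached up to -0.77. Timp2 there stood at 49.7 against 162 CPM (-1.71, -3.17 to -0.56). In the gate on Cxcr6, a chemokine receptor gene, and in the Th1 gate (Tbx21 or Ifng), the intervals of all 6 genes included 0.

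Mmp9 was low in barcodes with transcripts of naive or dividing T cells. It stood at 37.9 CPM (21.7 to 61.6) in the naive gate and 116 CPM (97.2 to 138) in the rest, a log2 ratio of -1.61 (-2.46 to -0.86). Adam17 in the same gate was higher, at 71.1 CPM (48.0 to 101.6) against 40.8 CPM (29.9 to 54.4), a log2 ratio of 0.80 (0.09 to 1.5). In the 50 barcodes with at least 2 cycling markers, whose median depth was 2676 counts, Mmp9 had 2 counts (13.5 against 103 CPM, -2.94, -5.99 to -1.06) and Timp2 stood at 74.4 against 162 CPM (-1.12, -2.15 to -0.26). Mmp9 was also lower in the 312 barcodes with Ighm, an immunoglobulin gene, at 61.8 against 110.0 CPM (-0.83, -1.46 to -0.24).

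The genes whose levels over the 14 groups were most like those of a member were named for the 4 members with at least 100 counts, among 1142 genes. For Mmp9 these were Gng5 (Pearson correlation 0.85), Mbd2 (0.80) and Dnajc1 (0.72), and for Timp2 they were Bcas2 (0.90), Set (0.83) and Cd82 (0.77). For Adam10 they were Fgfr1op2 (0.91), Ppm1g (0.86) and Slc6a6 (0.81), and for Adam19 Tsn (0.71), Paip2 (0.70) and Ltb (0.69). Each is the best of 1142 over 14 points that share 1 table and rest on few counts, so these values describe the table only. Between members the correlations ran from -0.48 to 0.42, the highest for Timp2 and Adam19, and that of Mmp9 and Adam8 was 0.38.

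Few other genes of the protease family had enough counts to be measured. Of 21 other MMP genes with a column, 7 had 0 counts and 0 reached the minimum of 50 counts. Mmp14, a membrane-bound MMP, led them with 21 counts. Among 22 other ADAM genes only Adam28 was measured, with 101 counts, and it did not differ beyond its interval in any of the 4 gates. Adamdec1 had 49 counts, of which 38 lay in 1 barcode. Among 20 ADAMTS genes only Adamts13, the protease of von Willebrand factor, was measured, at 37.6 against 66.1 CPM in the Gzmb gate (-0.82, -1.87 to 0.10). Of 7 other inhibitors only Spock2, which encodes the proteoglycan testican-2, was measured. It stood at 75.5 against 40.3 CPM in the Ikzf2 gate (0.91, 0.25 to 1.57) and 81.9 against 46.2 CPM in the Gzmb gate (0.83, 0.08 to 1.54), and 0.65 (-0.02 to 1.31) in the Foxp3 gate.

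Of 15 partner and maturation genes of ADAM10 and ADAM17, 7 were measured, of which 4 were called higher in the Gzmb gate, 1 higher in the Foxp3 gate, 2 lower in the Gata3 gate and 0 in the Ikzf2 gate. Over all genes the shares were 11.7% higher in the Gzmb gate, 10.3% higher in the Foxp3 gate and 8.23% lower in the Gata3 gate. Furin, a convertase that removes inhibitory propeptides, stood at 218 against 135 CPM in the Gzmb gate (0.70, 0.26 to 1.12) and 121 against 189 CPM in the Gata3 gate (-0.64, -1.02 to -0.25). Frmd8, which stabilises the ADAM17 complex at the cell surface, stood at 139.9 against 92.8 CPM in the Foxp3 gate (0.59, 0.13 to 1.05). The disulfide isomerase gene Pdia6 gave 0.66 (0.12 to 1.17) in the Gzmb gate, and the convertase gene Pcsk7 -1.01 (-1.83 to -0.21) in the Gata3 gate. Rhbdf2, which encodes the ADAM17 carrier iRhom2, had 31 counts.

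Proteins that ADAM proteases can shed were taken as a further list. Of 35 such genes 16 were measured and 3 had 0 counts, with 4 called higher and 4 lower in each of the Foxp3, Ikzf2 and Gzmb gates and 5 higher and 4 lower in the Gata3 gate. Over all genes 18.3% to 26.5% were called in either direction in these gates, which is also the background for the lists that follow. Tnfrsf1b, which encodes the TNF receptor TNFR2, stood at 410.0 against 227 CPM in the Foxp3 gate (0.85, 0.58 to 1.13) and 424 against 212 CPM in the Ikzf2 gate (1.0, 0.73 to 1.28). Il2ra encodes the alpha chain of the IL-2 receptor, and its level was 297 against 154 CPM (0.95, 0.62 to 1.28) and 293 against 150.1 CPM (0.96, 0.63 to 1.29) in the same gates. Cd27, a costimulatory receptor gene, stood at 412 against 261 CPM (0.66, 0.39 to 0.92) in the Foxp3 gate. Areg stood at 227 against 43.5 CPM in the Gata3 gate (2.38, 1.82 to 3.0) and 0.27 (-0.13 to 0.67) in the Foxp3 gate. Those called lower in the Foxp3 gate included, as examples picked after their values were seen, the IL-6 receptor gene Il6ra (-0.79, -1.53 to -0.11) and the Notch receptor gene Notch2 (-1.52, -2.81 to -0.42).

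Of 14 genes with a column for MMP-9 docking or substrates, 6 were measured, with 1 called higher and 1 lower in each of the Foxp3, Gata3 and Ikzf2 gates and 1 lower in the Gzmb gate. Cd44, which can hold MMP-9 at the cell surface, stood at 1158 against 952 CPM in the Foxp3 gate (0.28, 0.13 to 0.43). The integrin gene Itgav stood at 52.5 against 22.2 CPM there (1.24, 0.38 to 2.11). Lgals3, which encodes galectin-3, stood at 85.1 against 324 CPM in the Gata3 gate (-1.93), but 110 of its 291 counts lay in 1 barcode. Of 7 interaction partners of the TIMPs 3 were measured, with 1 called lower in the Foxp3 gate, 0 in the Gata3 gate, 1 higher and 1 lower in the Ikzf2 gate and 2 lower in the Gzmb gate. Itgb1, an integrin chain gene, stood at 82.7 against 138 CPM in the Ikzf2 gate (-0.74, -1.25 to -0.25). Cd74 gave 0.72 (0.25 to 1.20) in that gate, with 38 of its 154 counts in 1 barcode, and Cxcr4, a chemokine receptor gene, did not differ beyond its interval in any gate.

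The promoters of Adam8 and Adam17 are shown because these 2 genes were called higher in the Foxp3 gate and have an entry in the RefSeq promoter table (GRCm38.p6), as do 6 of the 7 genes. Each run is the 250 bases before the RefSeq start, 5′ to 3′ on the minus strand, which both genes use, with motif matches in capitals.
Adam8, chr7:139992563-139992812: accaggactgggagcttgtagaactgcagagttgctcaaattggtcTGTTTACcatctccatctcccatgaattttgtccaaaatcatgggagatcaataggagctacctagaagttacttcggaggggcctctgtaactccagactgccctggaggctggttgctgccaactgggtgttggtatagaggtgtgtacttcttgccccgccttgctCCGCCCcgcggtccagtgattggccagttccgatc
Adam17, chr12:21373633-21373882: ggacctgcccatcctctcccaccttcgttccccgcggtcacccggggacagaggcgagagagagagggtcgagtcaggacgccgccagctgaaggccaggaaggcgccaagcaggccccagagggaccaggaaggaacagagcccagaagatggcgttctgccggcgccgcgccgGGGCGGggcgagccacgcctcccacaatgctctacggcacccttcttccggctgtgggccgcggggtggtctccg
Both strands were searched for the forkhead motif TGTTTAC, for the motif of GATA factors read as AGATAA, for the motif of RUNX factors read as TGTGGT, for the motif of AP-1 read as TGANTCA and for the GC box read as GGGCGG. The matches shown do not overlap. The Adam8 window held TGTTTAC from 204 to 198 bases before the start, letters found in 3.17% of 32851 promoter windows of this length. The same letters were in 1 of the 3 Adam19 windows, 175 to 169 bases before the start, and Adam19 was not called higher in the Foxp3 gate. The Adam8 window also held a GC box, as did the Adam17 window and 32.7% of all windows. The Adam17 window held none of the other 4 motifs. The shares of all windows were 9.99% for the GATA motif, 14% for the RUNX motif and 6.75% for the AP-1 motif. A match describes the letters only and shows neither a binding site nor a cause.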

How the data were processed

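The authors deposited 1 table of whole-number counts, with barcodes in rows and gene symbols in columns; TopHat2, SAMtools and the mm10 build are named, per the submitters' processing notes. For the collapse of molecular identifiers, the annotation and any barcode filter, a statement was not given in the sources used here. These genes and lists were chosen with earlier results of these data known. Barcodes with at least 500 counts, 200 genes and under 20% mitochondrial counts were kept (1050 of 1985). No barcode appeared more than 1 time. No doublets were removed; Scrublet (scanpy 1.11.5) called 9 of 1050 (0.857%), and leaving them out was an alternative. Counts were summed on each side of a gate (at least 1 count) and given as CPM with exact Poisson intervals, log2 ratios with exact conditional intervals, and shares with Clopper-Pearson intervals (scipy 1.17.1). Thinned shares are the expected shares at 500 counts per barcode. A side with 0 counts was set to 3 counts. The calculation was tested on simulated data. Genes named from a list are up to 4 with the largest log2 ratio over interval width in any gate, and neighbours are the 3 genes of highest Pearson correlation over the groups. Mmp14, Adamdec1, Rhbdf2, Il6ra and Notch2 fall outside that rule and were named after their values were seen. Symbols were matched to GENCODE vM21 (25069 of 25724, 97.5%).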

Additional observations from a re-analysis of the deposited data

Results flagged for a closer look

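In the 935 barcodes that the filters left out, 3 of the genes had a signal above the level of 3 counts there (21.2 CPM). Mmp9 stood at 42.3 CPM (15.5 to 92.1) from 6 counts, Timp2 at 42.3 CPM from 6 counts and Adam19 at 63.5 CPM (29.0 to 120.5) from 9 counts. These barcodes were used in no comparison, and their levels are below those of the kept barcodes, which were 94.9, 154 and 103 CPM. The intervals of Adam19 in kept (87.3 to 119.9) and left-out barcodes overlap, as do those of Mmp9 (80.2 to 111.5 in kept barcodes). Those of Timp2 do not overlap (134.7 to 174.5 in kept and 15.5 to 92.1 in left-out barcodes).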

How the results depend on the processing

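No paired analysis was possible because the barcodes carry no sample. In place of left-out replicates, 11 alternatives were tried for each ratio, and medians of 20 thinning draws, the strata and the Il10 and Ccr2 gates were added after seeing the data. Of the ratios under the alternatives listed first, 250 values stayed within the interval of the reported value, 12 moved outside it and 2 reversed. Of those added, 232 stayed, 9 moved and 2 reversed. Only a reported ratio past 1.5-fold could count as reversed, so changes of sign in smaller ratios are among those that stayed or moved. Mmp9 in the Gata3 gate, for example, ran from -0.40 to 0.37. With 1 random draw of thinning to 500 counts that also thinned the gate genes, Adam8 in the Foxp3 gate turned to -1.93, Mmp9 in the Ikzf2 gate to 0.23, Adam8 in the Gata3 gate within Foxp3-positive barcodes to 2.21 and Adam10 in the Foxp3 gate within Gata3-positive barcodes to 0.23. Over 20 such draws the medians were 0.56, -0.29, -0.34 and -1.43. In that 1 draw Adam17 in the Foxp3 gate was 0.13 and Adam8 in the Gzmb gate within Foxp3-positive barcodes 0.16. Mmp9 ran from 0.74 to 1.11 in the Foxp3 gate and from 0.74 to 1.37 in the Gzmb gate over 13 alternatives. With only genes of at least 200 counts, where Timp2 alone remains, 0 members passed 1.5-fold in the Foxp3, Ikzf2 and Gzmb gates. In the Gata3 gate 1 passed with at least 1000 counts per barcode, after thinning, after thinning with thinned gates and without barcodes with markers of other cells. Of all genes, 22.2%, 29.9%, 30.6% and 18.5% passed in either direction under these settings. In the Ikzf2 gate 2 passed with thinned gates and with gates at 2 counts, where 38.7% and 27.8% of all genes passed. There 0 passed with counts capped at 1 and with means of scaled barcodes, beside 15.1% and 22.2% of all genes. Without the top barcode of each gene 0 passed as well, and no share of all genes was computed for that setting. In the Foxp3 gate 4 passed with at least 1000 counts per barcode, with counts capped at 1 and with means of scaled barcodes. Under these settings 23.7%, 15.7% and 23.1% of all genes passed. After thinning 2 passed, with or without thinned gates, beside 39.9% of all genes with thinned gates and 34.5% without. Depth is a limit, with 50 to 238 counts per member, as is the lack of samples per barcode.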
